A study of Homo sapiens with 27 samples.

Results

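Pseudouridine (Ψ) was measured in tRNA-Val, the tRNAs that read valine codons, in knockouts (KO) of the Ψ synthases PUS1, PUS7 and TRUB1 and in wild-type (WT) HEK293T cells, a line derived from human embryonic kidney. All rows of the cytosolic tRNA tables whose tRNA name begins with Val were taken. They gave 48 sites of 705, in 17 isodecoders of 250. Isodecoders are tRNAs that share an anticodon and differ elsewhere in sequence. The anticodon AAC had 15 sites in 6 isodecoders, CAC had 20 in 7, and TAC had 13 in 4. The series holds 27 small-RNA libraries of 9 genotypes, of which the treated and untreated libraries of PUS1 KO, PUS7 KO, TRUB1 KO and WT are used here. Each genotype had 2 treated libraries and 1 untreated library, and all of them, WT included, were made from RNA that had been demethylated with AlkB. The labels call the repeats technical replicates, so every test below measures the spread between 2 library preparations and not between cultures, and they do not say whether a knockout line is 1 clone. The RPUSD1 knockout table, which lists 16 rows, holds 0 tRNA-Val rows and was not compared.

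Ψ is an isomer of uridine in which the base is joined to the sugar through carbon, and enzymes make it on the finished RNA chain. PUS1 is known for Ψ in the anticodon stem at the neighbouring positions 27 and 28, PUS7 for Ψ in the D arm at position 13, and TRUB1 for Ψ in the T loop at position 55. Position 34 is the first base of the anticodon, the one that pairs with the third base of a codon. PRAISE, the assay used, exposes RNA to a bisulfite reagent that leaves an adduct on Ψ, and reverse transcriptase reads the adduct as a deletion. The level of a site is the percentage of covering reads that carry the deletion.

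The tRNA-Val rows lay at position 13 (15 sites), 27 (1 site), 28 (12 sites), 34 (3 sites) and 55 (17 sites). None lay at position 39, which held 121 rows of other tRNAs. Some rows give a range of bases, and a deletion there is not assigned to 1 base. All 12 rows at 28 span bases 27 to 28, the 3 rows at 34 span bases 32 to 34, and 13 of the 17 rows at 55 span bases 54 to 55. Of the other rows at 55, 2 name base 55 alone, those of Val-AAC-3 and Val-TAC-4. Val-CAC-6 spans 54 to 56 and Val-AAC-6, whose gene is 72 bases long against 73 in the others, spans 53 to 54.

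All 17 isodecoders were matched by anticodon and number to RefSeq tRNA genes on GRCh38, 28 genes in all, with 9 on chromosome 6 and 8 on chromosome 5. Outside any GENCODE release 29 gene lay 23 of the 28. Val-TAC-1 has genes at chr11:59550629-59550701 and chrX:18674909-18674981, and Val-TAC-2 lies close to the first of these at chr11:59550987-59551059. Val-TAC-3 is at chr10:5853711-5853783 and Val-CAC-4 at chr1:143803994-143804066, both outside annotated genes. Val-TAC-4, at chr6:27290626-27290698, lies in an intron of POM121L2, and Val-CAC-3, at chr19:4724635-4724707, overlaps an exon of DPP9, in each case without regard to strand. Val-CAC-14, at chr20:45322361-45322433, is annotated as a pseudogene.

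Median coverage of the tRNA-Val sites was 4032 to 8468 reads per treated library, against 14202 to 24711 over all 705 sites, and single tRNA-Val sites had 23 to 295481 reads. In treated libraries of WT, PUS1 KO and TRUB1 KO the lowest median coverage was at position 13. In PUS7 KO the median at 13 was 3026 and 3731 reads, above the 1354 and 1724 at position 27 of Val-TAC-3. Untreated libraries gave a median level of 0.192% at tRNA-Val sites, and the highest was 2.59% (95% Wilson interval 1.68 to 3.96%, counting error only) at position 55 of Val-CAC-6 in WT. Reads of near-identical isodecoders are not independent. Covering reads of Val-CAC-1 and Val-CAC-5 differed by at most 0.662% in every treated library, so these isodecoders stand for 1 measurement. Those of Val-TAC-1 and Val-TAC-2 differed by at most 2.18% at position 55 and 10.5% at position 34. Those of Val-AAC-1 and Val-AAC-2 differed by at most 1.81% at position 55, with levels within 0.366 points, so these rows at 55 are not independent either.

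In WT cells the levels differed more between isodecoders than between libraries. At position 13 the median was 73.4% in Val-TAC, 61.5% in Val-CAC and 40.8% in Val-AAC, with ranges of 43.1 to 93.4%, 56.0 to 88.0% and 17.3 to 49.2% over their isodecoders. The ranges of neighbours in this order overlap for Val-TAC and Val-CAC, and the range of Val-AAC lies below that of Val-CAC. Val-TAC-4 stood highest, at 93.1% and 93.7%, and Val-AAC-5 lowest, at 8.57% and 26.1% on only 35 and 23 reads. At position 28 Val-TAC-4 had 64.1%, Val-CAC a median of 58.6% and Val-AAC a median of 53.6%. Within Val-CAC this site ran from 11.8% in Val-CAC-14 to 71.7% in Val-CAC-6. Val-AAC was narrower, from 52.2% in Val-AAC-4 to 59.5% in Val-AAC-3. Treated WT libraries had 23010 and 23173 reads at 28 of Val-CAC-6, but 63 and 92 at its position 55. For Val-CAC-14 they had 7619 and 7882 at 28, and 1108 and 1091 at 55. For Val-CAC-4 they had 27077 and 27298 at 28, and 6252 and 6359 at 55. Whether the reads at 28 came from these isodecoders was not tested.

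Position 55 had the widest range in WT, from 6.46% in Val-AAC-3 to 96.0% in Val-CAC-3. Both isodecoders listed with base 55 alone were low, Val-AAC-3 at 6.94% and 5.98% and Val-TAC-4 at 21.5% and 22.1%. The 12 other tRNAs listed with a single base at 55 ranged from 30.3% to 77.1%, so both tRNA-Val values lie below all of them. The 14 tRNA-Val rows that span 2 bases had a median of 84.4% in WT, near the 85.1% of 207 such rows in other tRNAs. Among those rows Val-AAC-5 stood at 90.2% and Val-TAC-2 at 91.7%, the best covered rows Val-AAC-1, Val-CAC-1 and Val-TAC-1 at 71.3%, 74.5% and 91.7%, and Val-AAC-4 lowest at 32.3%.

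A site with at least 20 reads in each treated library was called lower or higher where the quasi-binomial model, moderated with limma over the whole table, gave a Benjamini-Hochberg adjusted p under 0.05 and the difference was at least 10 percentage points. All 48 tRNA-Val sites were tested in each comparison.

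In PUS1 KO the anticodon-stem sites fell, and a part of the deletions at position 28 stayed. Of the 48 sites, 15 were lower and 6 higher, where 16.0% and 7.70% of all 701 tested sites were called. Position 28 accounted for 11 of the lower calls and position 27 for 1. The level left at position 28 in PUS1 KO had a median of 39.6% of the WT level over 12 tRNA-Val sites and of 8.35% over 73 sites of other tRNAs. The ranges overlapped widely, at 7.93 to 82.3% in tRNA-Val and 1.45 to 81.0% in other tRNAs, so a high remaining level was not confined to tRNA-Val. The top of the tRNA-Val range is Val-CAC-14, and Val-CAC-1 and Val-CAC-5 count as separate sites here. In percent of reads, the tRNA-Val medians were 19.6% in PUS1 KO and 58.5% in WT, and those of other tRNAs were 1.97% in PUS1 KO and 25.4% in WT. The untreated level at these tRNA-Val sites was at most 1.19% in PUS1 KO.

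The level left at position 28 in PUS1 KO had a median of 23.2% of reads in Val-CAC and ran from 7.27% to 26.9% in Val-AAC, and Val-TAC-4 had 5.08%. Val-CAC-1, the best covered row at 28, had 23.0% and 23.4% in PUS1 KO on 71327 and 68126 reads, against 59.1% and 58.0% in WT (adjusted p 3.3e-07). Val-CAC-2, Val-CAC-4, Val-CAC-5 and Val-CAC-6 lay between 23.2% and 29.9% in PUS1 KO, against 58.5% to 71.7% in WT, and Val-CAC-3 was lower, at 15.9% in PUS1 KO and 55.1% in WT. Val-AAC-2 had 26.9% in PUS1 KO and 54.5% in WT, and Val-AAC-1 had 16.0% in PUS1 KO and 52.8% in WT. At the low end, Val-AAC-3 had 6.71% and 7.83% in PUS1 KO, against 60.6% and 58.4% in WT (adjusted p 3.0e-05). Val-AAC-4 had 14.0% in PUS1 KO and 52.2% in WT, on fewer than 150 reads in each library. Val-TAC-4 showed the greatest difference of the isoacceptors at position 28, with 4.94% and 5.23% in PUS1 KO against 64.9% and 63.4% in WT, a difference of -59.05 points (adjusted p 8.6e-07). Position 27 of Val-TAC-3, the tRNA-Val row listed at that base alone, had 0.306% and 0.367% in PUS1 KO, against 12.5% and 14.7% in WT (adjusted p 9.6e-05). That left 2.47% of the WT level. Read numbers at these rows moved as well. The ratio of reads covering 28 to reads covering 55 was compared between treated PUS1 KO and WT libraries. PUS1 KO over WT had a median of 1.29 over 12 tRNA-Val rows, from 0.923 to 2.11. For position 27 of Val-TAC-3 it was 3.23. Over 69 other tRNAs, reads covering 28 had a median of 38.9% of those covering 55 in PUS1 KO and 9.53% in WT. The part of this in the levels was not tested.

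The pseudogene-annotated Val-CAC-14 was the tRNA-Val row at 28 that was not called. It had 10.0% and 9.46% in PUS1 KO, against 13.1% and 10.6% in WT, so the genotypes did not overlap but differed by little (difference -2.10 points, adjusted p 0.134). Its reads covering 28 per 100 covering 55 were 688 and 722 in treated WT libraries, against 48.7 in the untreated one. In treated PUS1 KO libraries they were 677 and 624, against 52.0 untreated. Whether the reads at 28 came from Val-CAC-14 was not tested, which limits this row. The authors' deposited table marks 11 tRNA-Val rows at 28 and 1 at 27 as PUS1-dependent. It marks all 15 rows at 13 and all 3 rows at 34 as PUS1-independent, those called below included.

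**Figure D1:**
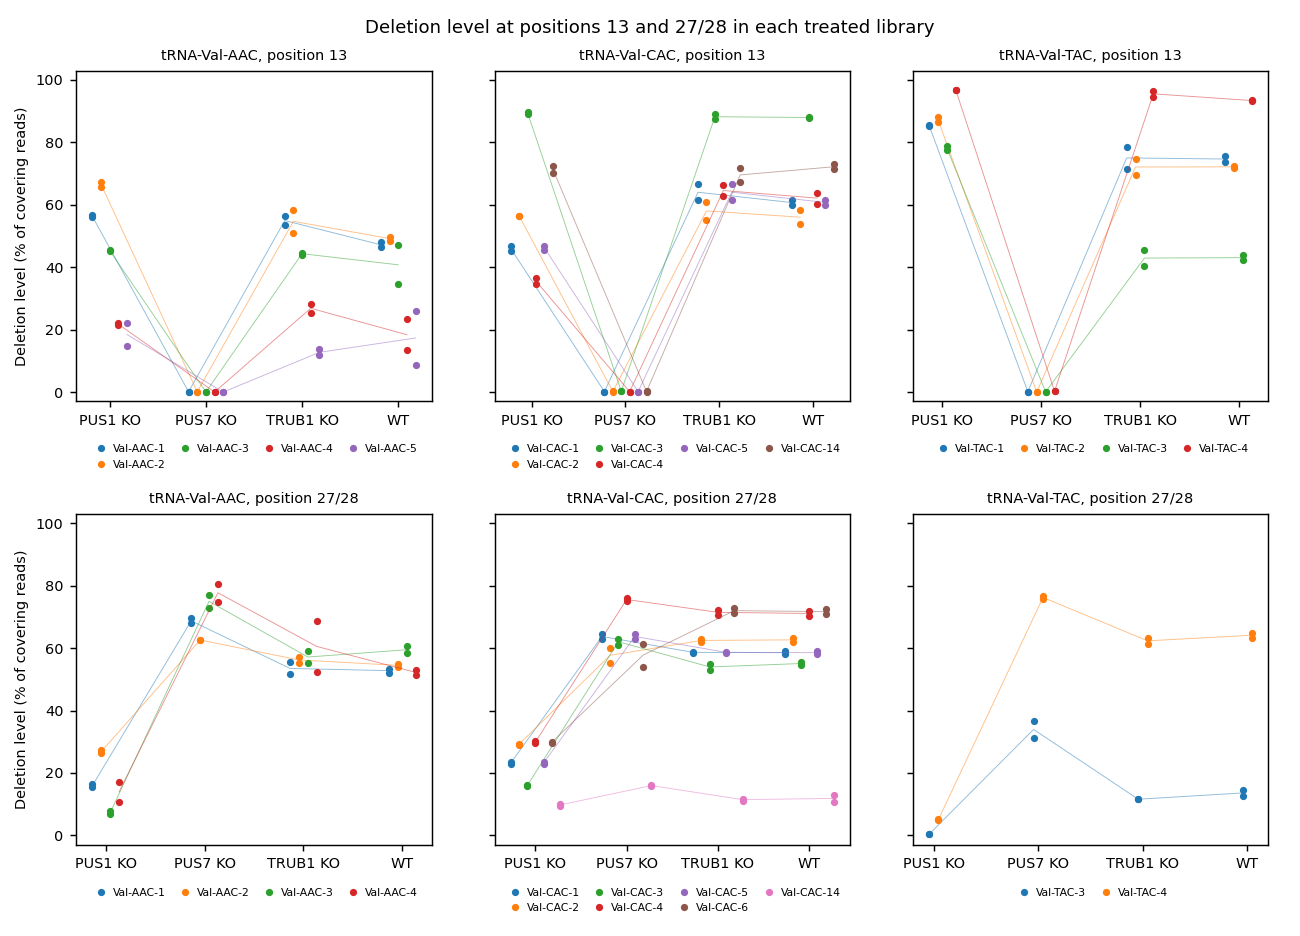
Deletion level (percent of covering reads) at position 13 (upper row) and at positions 27 or 28 (lower row) in PUS1 KO, PUS7 KO, TRUB1 KO and WT. Each point is 1 treated library, colours are isodecoders, and lines join the means of 2 libraries. In the Val-TAC panel of the lower row Val-TAC-3 is the row at 27 and Val-TAC-4 the row at 28. All PUS7 KO points at position 13 lie near 0, and PUS1 KO points at 27 or 28 lie lowest, at 29.9% or less on average.

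Levels at position 13 also changed in PUS1 KO, in both directions. Of 15 tRNA-Val sites at 13, 3 were lower and 4 higher, all 3 lower ones in Val-CAC, and of 34 sites in other tRNAs 0 were lower and 1 was higher. Limma on percentage points gave the same 4 counts, and at an unadjusted p under 0.05 the model had 3 lower and 13 higher sites in other tRNAs. Val-CAC-4 had 36.5% and 34.6% in PUS1 KO, against 63.9% and 60.4% in WT, a difference of -26.60 points (adjusted p 0.00017). Its reads covering 28 per 100 covering 55 were 433 and 429 in treated WT libraries, against 149 in the untreated one. In treated PUS1 KO libraries they were 535 and 521, against 154 untreated. Whether the reads at 13 and 28 came from Val-CAC-4 was not tested, which limits both rows. Val-CAC-1 had 46.8% and 45.2% in PUS1 KO, against 61.5% and 60.0% in WT (adjusted p 0.00032), and Val-CAC-5, with nearly the same read numbers, had 46.2% in PUS1 KO and 60.8% in WT. The libraries of the 2 genotypes do not overlap at any of these sites.

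The 4 higher sites were in Val-TAC and Val-AAC. Val-TAC-3 had 78.8% and 77.6% in PUS1 KO, against 42.4% and 43.8% in WT, a difference of 35.14 points (adjusted p 0.00047). Val-TAC-2 had 87.4% in PUS1 KO and 72.2% in WT (adjusted p 0.0017), and Val-AAC-2 had 66.5% in PUS1 KO and 49.2% in WT (adjusted p 0.0054). Val-TAC-1 had 85.6% and 85.4% in PUS1 KO, against 75.7% and 73.6% in WT, and its difference of 10.82 points drops to 9.77 without WT replicate 2, under the threshold.

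The remaining 8 sites at position 13 were not called in PUS1 KO. Val-AAC-1, at 56.3% in PUS1 KO and 47.2% in WT, was 9.08 points higher, just under the threshold (adjusted p 0.023). The well covered Val-CAC-3 had 89.5% in PUS1 KO and 88.0% in WT, and Val-CAC-2 had 56.5% in PUS1 KO and 56.0% in WT. Val-TAC-4, near the top of the scale in WT at 93.4%, had 96.9% in PUS1 KO.

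Levels were also summed over isodecoders. How shared reads were divided is not given, so near-identical isodecoders such as Val-CAC-1 and Val-CAC-5 may enter these and later sums with the same reads. In the sum, position 13 of Val-CAC stood at 56.9% ± 1.05 in PUS1 KO and 67.2% ± 1.22 in WT (SD, n = 2 each). For Val-TAC the sums gave 88.6% ± 0.514 in PUS1 KO and 77.2% ± 0.326 in WT, and for Val-AAC 54.6% ± 0.431 in PUS1 KO and 44.2% ± 2.02 in WT. The sum of Val-CAC was thus lower and those of the other isoacceptors higher in PUS1 KO, by more than the library spread. The fall in the Val-CAC sum is that of Val-CAC-1, Val-CAC-4 and Val-CAC-5. Val-CAC-2, Val-CAC-3 and Val-CAC-14 differed from WT by 0.44, 1.54 and -0.78 points. In TRUB1 KO the sum for Val-AAC was 50.3% ± 1.63, also above WT without overlap of the libraries and between WT and PUS1 KO. Val-CAC had 69.7% ± 2.82 and Val-TAC 80.8% ± 2.75 in TRUB1 KO (SD, n = 2 each). Of the 15 single sites at position 13, 0 were called in TRUB1 KO, also with limma on percentage points and at an unadjusted p under 0.05. The differences from WT ran from -4.60 points at Val-AAC-5 to 8.46 points at Val-AAC-4, with 7.76 points at Val-AAC-1 (adjusted p 0.14), 3.29 at Val-CAC-1 and -0.14 at Val-TAC-3. Covering reads moved unevenly beside these levels. Position 13 of Val-TAC-2 had 2557 and 2559 reads in PUS1 KO, against 448 and 514 in WT, whereas Val-CAC-4 had 2611 and 2656 in PUS1 KO, against 2675 and 2726 in WT. The part of these read numbers in the levels was not tested.

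At position 34, Val-TAC had rows in 3 isodecoders, and 2 of them rose in PUS1 KO. Val-TAC-1 had 63.5% and 63.9% in PUS1 KO, against 52.9% and 52.3% in WT (11.12 points, adjusted p 9.7e-06). Val-TAC-2 had 64.2% and 64.4% in PUS1 KO, against 52.8% and 52.0% in WT (11.89 points, adjusted p 8.5e-06). As these isodecoders have nearly the same read numbers, their calls are not independent. Val-TAC-3, with 46.5% and 46.3% in PUS1 KO against 46.5% and 44.6% in WT, was not called (adjusted p 0.43). Among 6 sites of other tRNAs at 34, 0 were called in the quasi-binomial model, where 3 were higher at an unadjusted p under 0.05. With limma on percentage points 2 were higher. In PUS7 KO, Val-TAC-1 stood at 51.6%, Val-TAC-2 at 48.7% and Val-TAC-3 at 45.2%. In TRUB1 KO the values were 45.6%, 45.5% and 41.7%, and the differences of -6.96 and -6.94 points from WT at Val-TAC-1 and Val-TAC-2 (adjusted p 0.0012 and 0.0015) lay under the 10-point threshold. Set against each other, PUS1 KO was 12.15 points above PUS7 KO (adjusted p 2.5e-05) and 18.08 points above TRUB1 KO (adjusted p 3.5e-06) at Val-TAC-1. At Val-TAC-3 PUS1 KO was 4.63 points above TRUB1 KO, which is not a call. These pairs of knockouts were chosen after their values were seen.

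At position 55, 0 of 17 tRNA-Val sites were called in PUS1 KO, in the quasi-binomial model and with limma on percentage points. At an unadjusted p under 0.05, 4 were higher and 1 lower, by at most 3.23 points.

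In PUS7 KO, position 13 fell to a mean of 2 libraries of at most 0.260% in all 3 isoacceptors. All 15 tRNA-Val sites at 13 were lower, as were all 34 of other tRNAs, where 11.0% of all 700 tested sites were lower and 2.86% higher. The tRNA-Val median was 0.131% in PUS7 KO and 60.7% in WT. Val-TAC-4 had 0.315% and 0.205% in PUS7 KO, against 93.1% and 93.7% in WT, a difference of -93.15 points (adjusted p 9.9e-05). Val-CAC-3 had 0.262% and 0.231% in PUS7 KO, against 88.1% and 87.9% in WT (adjusted p 1.6e-05). Val-CAC-1 had 0.138% and 0.170% in PUS7 KO on 23871 and 33565 reads, against 61.5% and 60.0% in WT. Val-AAC-1, the best covered Val-AAC row, had 0.0979% and 0.0753% in PUS7 KO, against 48.0% and 46.4% in WT (adjusted p 0.00026).

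The highest mean level left was that of Val-TAC-4. The untreated level at these sites in PUS7 KO was at most 0.101%. Val-CAC-2, Val-CAC-4, Val-CAC-5 and Val-CAC-14 had 0.131% to 0.154% in PUS7 KO, against 56.0% to 72.2% in WT. Val-TAC-1, Val-TAC-2 and Val-TAC-3 had 0.155%, 0.0403% and 0.0636% in PUS7 KO, against 74.7%, 72.2% and 43.1% in WT, and Val-AAC-2 and Val-AAC-3 had 0.0983% and 0.0299% in PUS7 KO, against 49.2% and 40.8% in WT. Val-AAC-4 had 0 deletions in 2844 and 3499 reads in PUS7 KO, which allows up to 0.105% and 0.0857%, against 13.3% and 23.4% on 75 and 64 reads in WT (adjusted p 0.013). Val-AAC-5 had 0 deletions in 2226 and 2628 reads in PUS7 KO, which allows up to 0.135% and 0.114%, against 8.57% and 26.1% in WT (adjusted p 0.044). The calls at Val-AAC-3, Val-AAC-4, Val-AAC-5 and Val-TAC-3 were lost without WT replicate 1 and also without WT replicate 2, when 11 of the 15 remained. Their adjusted p then ran from 0.053 to 0.35, and in the fit of all 4 genotypes together all 15 kept their call, beside a further lower call at position 28 of Val-CAC-6. Limma on percentage points gave adjusted p of 0.051 for Val-AAC-4 and 0.18 for Val-AAC-5. The authors' deposited table marks the same 15 rows as PUS7-dependent and no other tRNA-Val row.

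The number of reads covering position 13 also differed between PUS7 KO and WT, a comparison made after the values were seen. For the 6 Val-CAC isodecoders with rows at both positions, reads covering 13 per 100 reads covering 28 were 41.1 and 45.1 in treated PUS7 KO libraries, against 7.14 and 7.11 in WT. They were 6.53 and 6.78 in PUS1 KO and 7.24 and 6.81 in TRUB1 KO. The untreated libraries lay together, at 56.1 in PUS7 KO and 51.7 in WT. For 4 Val-AAC isodecoders the figures in treated libraries were 127 and 121 in PUS7 KO, against 12.1 and 12.0 in WT. For Val-TAC-1, Val-TAC-2 and Val-TAC-3, counted per 100 reads at 34, they were 10.7 and 11.9 in PUS7 KO, against 2.13 and 2.16 in WT, and 4.32 and 4.34 in PUS1 KO. The treated libraries of PUS7 KO thus stood above those of WT in all 3 isoacceptors. This was not particular to tRNA-Val. Over 12 other tRNAs the median of reads covering 13 per 100 covering 28 was 55.6 in treated PUS7 KO and 3.97 in treated WT libraries. WT levels at 13 rest on fewer reads than those of PUS7 KO, and the part of this in the levels was not tested.

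**Figure D2:**
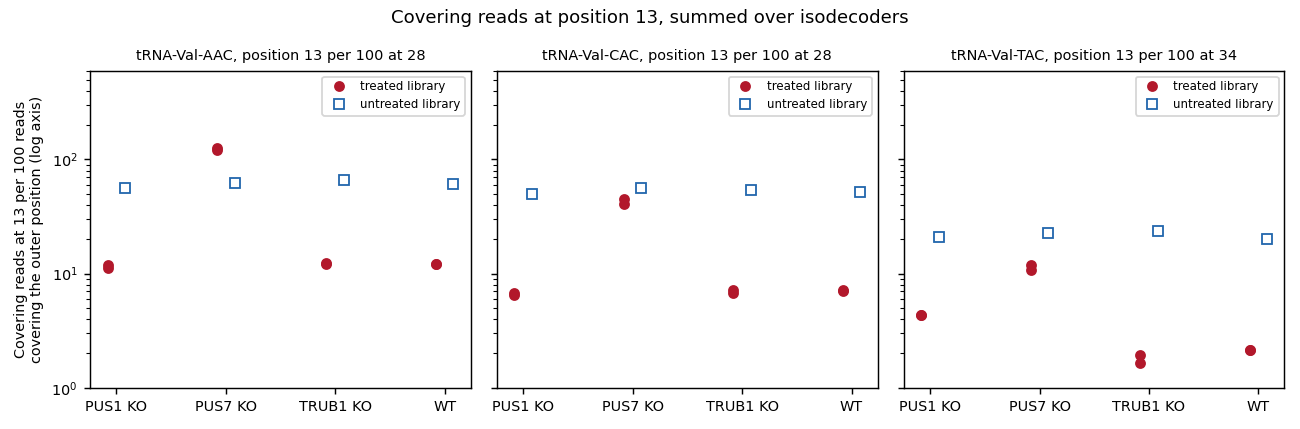
Reads covering position 13 per 100 reads covering position 28 (Val-AAC, Val-CAC) or 34 (Val-TAC), summed over isodecoders that have both rows, on a log axis. Filled circles are the 2 treated libraries and open squares the untreated library of PUS1 KO, PUS7 KO, TRUB1 KO and WT. Treated PUS7 KO libraries stand above the other treated libraries in each isoacceptor, 41.1 and 45.1 against 7.14 and 7.11 in WT for Val-CAC.

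Loss of PUS7 also went with higher levels at 4 tRNA-Val sites outside position 13. Val-AAC-1 at 28 had 69.5% and 67.9% in PUS7 KO, against 53.4% and 52.2% in WT (15.96 points, adjusted p 0.0056). Val-TAC-4 at 28 had 75.8% and 76.7% in PUS7 KO, against 64.9% and 63.4% in WT (12.10 points, adjusted p 0.012). Val-TAC-3 at 27 had 36.6% and 31.3% in PUS7 KO, against 12.5% and 14.7% in WT (20.34 points, adjusted p 0.033). At position 28, 4 of 72 sites of other tRNAs were also called higher and 0 lower, and limma on percentage points called 4 higher and 1 lower. At an unadjusted p under 0.05, 8 of these were higher and 31 lower. Val-TAC-3 was the 1 site of 46 at position 27 that was called, and the 45 sites of other tRNAs there had a median difference of 0.72 points, with 7 higher and 5 lower at an unadjusted p under 0.05 and 0 called by limma on percentage points. The fourth, Val-TAC-4 at 55, had 38.5% and 37.5% in PUS7 KO, against 21.5% and 22.1% in WT (16.20 points, adjusted p 0.0024). Among 221 sites of other tRNAs at 55, 0 were called, with 12 higher and 2 lower at an unadjusted p under 0.05. With limma on percentage points 1 of them was lower, and all 4 tRNA-Val sites were again higher. In the quasi-binomial model all 4 calls were lost without WT replicate 1, with adjusted p of 0.064 to 0.29, and without WT replicate 2, with 0.062 to 0.26, while the differences stayed between 11.31 and 21.44 points.

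Over all 12 tRNA-Val rows at 28 the median difference was 6.08 points in PUS7 KO, and over 72 rows of other tRNAs it was -2.10 points. Most tRNA-Val rows at 28 were not called. At 28, Val-AAC-2 was 8.11 points higher in PUS7 KO (adjusted p 0.020), Val-AAC-3 had 75.0% in PUS7 KO and 59.5% in WT (adjusted p 0.065), and Val-AAC-4 had 77.7% in PUS7 KO and 52.2% in WT (adjusted p 0.16). Limma on percentage points called 3 of the 4 Val-AAC rows at 28. Read numbers at 27 and 28 moved as well. The ratio of reads covering 28 to reads covering 55, treated PUS7 KO over WT, had a median of 1.25 over 12 tRNA-Val rows. It ran from 0.752 in Val-CAC-6 to 12.8 in Val-AAC-4, with 2.81 in Val-AAC-3, 1.71 in Val-TAC-4 and 1.53 in Val-AAC-1. For position 27 of Val-TAC-3 it was 1.83. Val-AAC-4 had 678 and 957 reads at 28 in PUS7 KO, against 74 and 64 in WT. The part of this in the levels was not tested. Of the 7 Val-CAC rows at 28, 0 were called, also with limma on percentage points, and at an unadjusted p under 0.05, 5 were higher and 1 lower. The lower one was Val-CAC-6, with 61.5% and 54.04% in PUS7 KO, against 72.5% and 70.9% in WT (-13.93 points, adjusted p 0.062). This row had 14932 and 16016 reads in PUS7 KO, against 61 and 73 at position 55 of Val-CAC-6. It was called lower in the fit of all 4 genotypes together (adjusted p 0.0071), without PUS7 KO replicate 1 (-17.64 points, adjusted p 0.00017) and without PUS7 KO replicate 2 (-10.22 points, adjusted p 0.0019). Val-AAC-3 at 28 was called higher under the same 3 alternatives, with adjusted p of 0.012 to 0.015. At 55, Val-AAC-3, the other isodecoder listed with base 55 alone, had 14.0% in both PUS7 KO libraries, against 6.94% and 5.98% in WT. Its adjusted p was 0.0093, but the 7.56 points are under the threshold. The 12 single-base rows of other tRNAs at 55 had a median difference of -3.98 points in PUS7 KO. The PUS7 KO libraries differed from each other by up to 6.18 points at tRNA-Val sites at 55 with over 1000 reads, against up to 1.94 points between WT libraries, which limits what can be called there.

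In TRUB1 KO, 3 tRNA-Val sites were lower and 0 higher, where 11.1% and 0.428% of 701 sites were called. At an unadjusted p under 0.05, 0 tRNA-Val sites were higher, and limma on percentage points also gave 0. All 3 lower sites were at position 55 of Val-TAC. Val-TAC-1 had 73.0% and 73.4% in TRUB1 KO on 207786 and 256087 reads, against 91.7% and 91.6% in WT (-18.44 points, adjusted p 1.9e-06). Val-TAC-2, on nearly the same number of reads, had 73.1% and 73.5% in TRUB1 KO, against 91.8% and 91.6% in WT. Val-TAC-3 had 78.4% and 78.6% in TRUB1 KO, against 88.8% and 88.3% in WT (adjusted p 0.00015). Its -10.02 points lie just inside the threshold and became -9.76 without WT replicate 1 and -9.91 without TRUB1 KO replicate 1.

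At Val-TAC-1, PUS1 KO was 19.24 points above TRUB1 KO (adjusted p 3.8e-06) and PUS7 KO 19.85 points above it (adjusted p 3.2e-06). The drop in TRUB1 KO at this site therefore differs from the values of both other knockouts.

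The other 14 tRNA-Val sites at 55 were not called in TRUB1 KO. The next difference was that of Val-CAC-3, with 91.6% and 91.5% in TRUB1 KO against 96.0% in both WT libraries (-4.42 points, adjusted p 9.3e-05). Val-TAC-4 had 18.1% in TRUB1 KO and 21.8% in WT (-3.71 points, adjusted p 0.038). Val-CAC-1 had 73.5% and 74.0% in TRUB1 KO on 259191 and 295481 reads, against 75.2% and 73.8% in WT (adjusted p 0.37), and Val-AAC-1 had 70.1% and 70.5% in TRUB1 KO, against 72.1% and 70.5% in WT. The values of both overlap between the genotypes. Over the 17 tRNA-Val sites the median difference was -1.13 points with 3 called, and over 221 sites of other tRNAs it was -6.77 points with 74 called. Summed over isodecoders, position 55 stood at 72.2% ± 0.363 in TRUB1 KO and 89.9% ± 0.282 in WT for Val-TAC, at 76.9% ± 0.258 in TRUB1 KO and 78.0% ± 0.870 in WT for Val-CAC, and at 63.3% ± 0.161 in TRUB1 KO and 64.4% ± 1.32 in WT for Val-AAC (SD, n = 2 each). The Val-TAC difference was larger than the spread between libraries, and the differences of Val-CAC and Val-AAC were near the SD of WT. The authors' deposited table marks all 48 tRNA-Val rows as TRUB1-independent, the 3 Val-TAC rows included.

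At positions 27 and 28, 0 tRNA-Val sites were called in TRUB1 KO, also with limma on percentage points and at an unadjusted p under 0.05. At 28 its 12 sites had a median of 58.6% in TRUB1 KO and 58.5% in WT, and position 27 of Val-TAC-3 had 11.5% and 11.6% in TRUB1 KO, against 12.5% and 14.7% in WT (adjusted p 0.47).

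**Figure D3:**
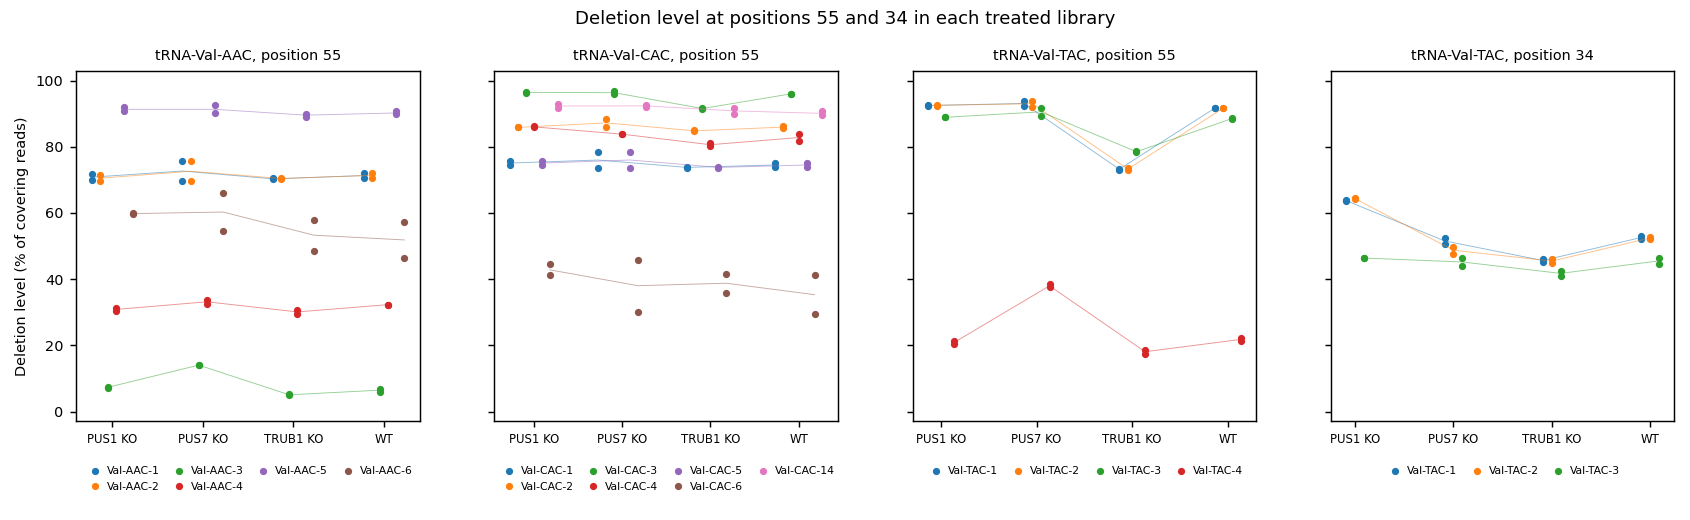
Deletion level (percent of covering reads) at position 55 of Val-AAC, Val-CAC and Val-TAC and at position 34 of Val-TAC, in PUS1 KO, PUS7 KO, TRUB1 KO and WT. Points are treated libraries, colours are isodecoders, and lines join the means of 2 libraries. Val-TAC-1 and Val-TAC-2 stand near 73% in TRUB1 KO and near 92% in WT at 55, and Val-TAC-4 has its highest values at 55 in PUS7 KO.

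**Figure D4:**
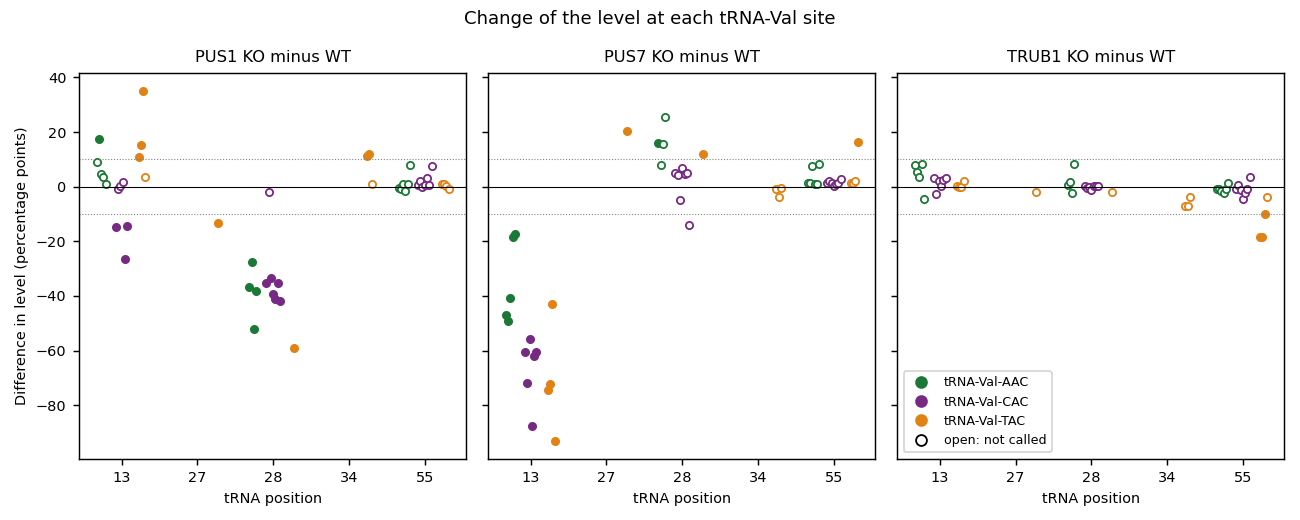
Difference in level between each knockout and WT, in percentage points, at the 48 tRNA-Val sites by position. Each circle is 1 isodecoder, coloured by isoacceptor. Filled circles were called and dotted lines mark 10 points in either direction. PUS1 KO has 15 lower and 6 higher sites, PUS7 KO 15 lower and 4 higher, and TRUB1 KO 3 lower.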

How the data were processed

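Small RNA of HEK293T cells was size-selected, AlkB-treated and sequenced with and without PRAISE treatment, per the labels' protocols. Tools listed in the submitters' processing notes are UMI-tools 1.0.0, SAMtools 1.14, BWA and cutadapt, with GRCh38 as the build. How sites were filtered, deletions counted and shared reads divided is not given in the sources used here. The deposited tables give counts of deletion reads and of covering reads for each library, per the file headers. The authors' dependence label is a column of another (other) kind. The knockout tables list the sites of the WT table.

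Levels are deletions over covering reads. Each site with 20 reads in every treated library was fitted with a quasi-binomial model in R 4.3.3, its dispersion moderated over the whole table by limma 3.58.1 (squeezeVar) and kept at 1 or more, and tested with a two-sided F test. The p-values were adjusted by Benjamini-Hochberg across the table. Summaries used pandas 2.3.3. On simulated data, sites moved by 15 points were called in 96.9% (PUS1 KO), 97.6% (PUS7 KO) and 97.6% (TRUB1 KO) of cases over 5 draws on the 700 to 701 tested sites. The simulation gave every site the median spread of the WT libraries and moved only sites of middle level. Some real sites varied more, with a fitted dispersion of 448 at position 55 of Val-AAC-2 in PUS7 KO against WT. The simulated shares do not cover such sites. The alternatives changed the coverage minimum, the model, the threshold, the libraries and the subtraction of the untreated level. Sites named are all those called, and for each isoacceptor and position the best covered, the highest and the lowest in WT; others were named after their values were seen. The members, lists and comparisons were chosen with earlier results of these data known. The other genotypes were not analysed here. Intervals cover counting error only.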

Additional observations from a re-analysis of the deposited data

How the results depend on the processing

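Of 43 calls at single tRNA-Val sites, 23 were kept under all 12 alternatives and 0 reversed. Val-AAC-4 at 28 in PUS1 KO kept its call wherever it was tested, but had too few reads for the minimum of 100. Some alternatives could hardly remove a call. The threshold of 5 points keeps the same p-values with a looser limit and cannot lose one. Subtraction of the untreated level also keeps the p-values, and a minimum of 1 read leaves the same tRNA-Val sites tested. With a threshold of 20 points, the higher sites numbered 1 in PUS1 KO and 1 in PUS7 KO and the lower sites 0 in TRUB1 KO. With 5 points, 7 were higher in PUS7 KO and 5 lower in TRUB1 KO. Leaving out 1 library at a time gave 0 to 6 higher sites in PUS7 KO, 0 without either WT replicate, 11 to 16 lower in PUS7 KO, 5 to 6 higher in PUS1 KO and 2 to 3 lower in TRUB1 KO. Limma on percentage points gave 6 higher and 13 lower sites in PUS7 KO, the fit of all 4 genotypes 16 lower ones, and a minimum of 100 reads left 44 sites and 13 lower ones in PUS7 KO. The main model did not pair libraries by replicate number. Same-numbered libraries deviated with Spearman's rho of -0.060 (PUS1 KO), -0.030 (PUS7 KO) and -0.075 (TRUB1 KO) across about 700 sites, which are not independent. Pearson's r was -0.206 (PUS1 KO), 0.080 (PUS7 KO) and -0.138 (TRUB1 KO). With 2 treated libraries per genotype, these values cannot show whether the libraries were paired. With the replicate block, 2 sites were higher and 13 lower in PUS7 KO, and the counts in PUS1 KO and TRUB1 KO did not change. Depth limits position 13 in WT most, where Val-AAC-5 had 35 and 23 reads.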
